A study of Mus musculus with 32 samples.

Results

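The genes described here encode intraflagellar transport proteins, the BBSome and the motors, GTPases and gate proteins that work with them in cilia. They were chosen as a fixed list of 35 symbols, and each was read from the probe sets annotated to exactly 1 of those symbols. For a gene with several such probe sets, the one with the highest mean signal was used. This gave 33 measured genes out of 19938 tested. The signals of Arl6 and Arl13b were not analysed here, while their promoters entered the motif search below.

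A cilium has no ribosomes, so its proteins are made in the cell body and carried in along the microtubules of its core. Kinesin-2 motors pull trains of the IFT-B and IFT-A complexes towards the tip, and the dynein-2 motor brings them back. The BBSome rides on these trains as an adaptor for membrane proteins, and the transition zone at the base controls what enters. In olfactory sensory neurons the receptors and the transduction channel sit in the membrane of long cilia at the tip of the dendrite, and loss of BBSome or CEP290 function is known to impair the sense of smell.

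The cells came from olfactory mucosa of adult S100a5-tauGFP mice, in which GFP follows S100a5, a calcium-binding protein gene that neuronal activity raises. All 8 groups carried this reporter. Mice were kept singly in clean air for 26 h and then received odorant or vehicle for 14 h in pulses of 10 s at intervals of 5 min, per the labels. Dissociated mucosal cells were sorted by GFP fluorescence into a positive and a negative fraction. The 8 groups of 4 arrays were vehicle and eugenol in each fraction in the eugenol experiments, and vehicle and muscone in each fraction in the muscone experiments. Eugenol is the main odorant of clove, and muscone is a musk. An experiment here is a set of 4 arrays that share a code in their titles, 1 per stimulus and fraction, and is called eugenol experiment 1 to 4 or muscone experiment 1 to 4. Whether the 4 arrays of a group stem from different mice is not stated in the labels, so p-values measure the spread between these arrays, which may be technical. The gate sorted cells by reporter brightness and not by cell type, and GFP-negative cells kept high signals of mature neuron genes.

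Signals are deposited log2 intensities, and all differences below are on that scale. The median over all probe sets ran from 6.72 to 8.81 between arrays and was lowest on the 4 arrays of muscone experiment 3 (6.72 to 6.86). Differences between fractions were therefore taken within experiments, with the experiment as a block in 1 limma fit. A gene was called at a Benjamini-Hochberg adjusted p under 0.05 over all 19938 genes. S100a5, whose promoter drives the reporter, was 0.43 higher in GFP-positive cells (SE 0.15, adjusted p = 0.0171). Omp, the olfactory marker protein, was 0.27 higher (SE 0.066, adjusted p = 0.00114). S100a5 was dim, with mean vehicle signals of 7.28 in GFP-positive and 6.85 in GFP-negative cells. The mean over all genes had a median of 8.62 and 8.60 over these arrays. Omp was bright, at 13.98 and 13.71, where the highest value of any probe set was 14.95. The call of S100a5 was lost without eugenol experiment 1 (0.34, adjusted p = 0.063) and without muscone experiment 4 (0.38, adjusted p = 0.0579). Both genes turned below 0 with centring on mature neuron markers (−0.24 and −0.40) and on odorant receptors (−0.22 and −0.37). Omp is itself 1 of the 15 mature neuron markers. Its turn with that centring shows only that it differed less than the list's median signal, which was 0.67 higher. In sorted bulk RNA, fewer cells of a type and less RNA per cell cannot be told apart.

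The comparison of the fractions under vehicle asked how cilia transport genes were distributed across the reporter gate without added odorant. All 33 measured members were called higher in GFP-positive cells and 0 lower, a result that turned around with centring on mature neuron markers (0 higher, 19 lower) or on odorant receptors (0 higher, 18 lower), where 90.6% of all genes were called lower with either. As background, 45.1% of all genes were called higher (8990 of 19938). The median member difference was 0.50 and the range 0.19 (Ift46) to 0.77 (Bbs5), against a median of 0.14 over all genes. The 75th and 90th percentiles of all genes were 0.28 and 0.46, so the median member lay above the 90th percentile. Adjusted p ran from 5.65e-09 to 0.00426. A fit without the experiment block, which ignores the pairing of arrays, called 0 members (7 at a raw p under 0.05 in limma). The shares of all genes in that fit are not given here. Each experiment gives 1 vehicle pair of fractions, and 262 of the 264 member differences from these pairs were above 0. Over all genes 61.8% of such differences were above 0, and 26.4% of genes were above 0 in all 8 experiments, compared with 31 of 33 members. The exceptions were Ift20 in eugenol experiment 4 (−0.025) and Ift46 in eugenol experiment 3 (−0.028).

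**Figure D1:**
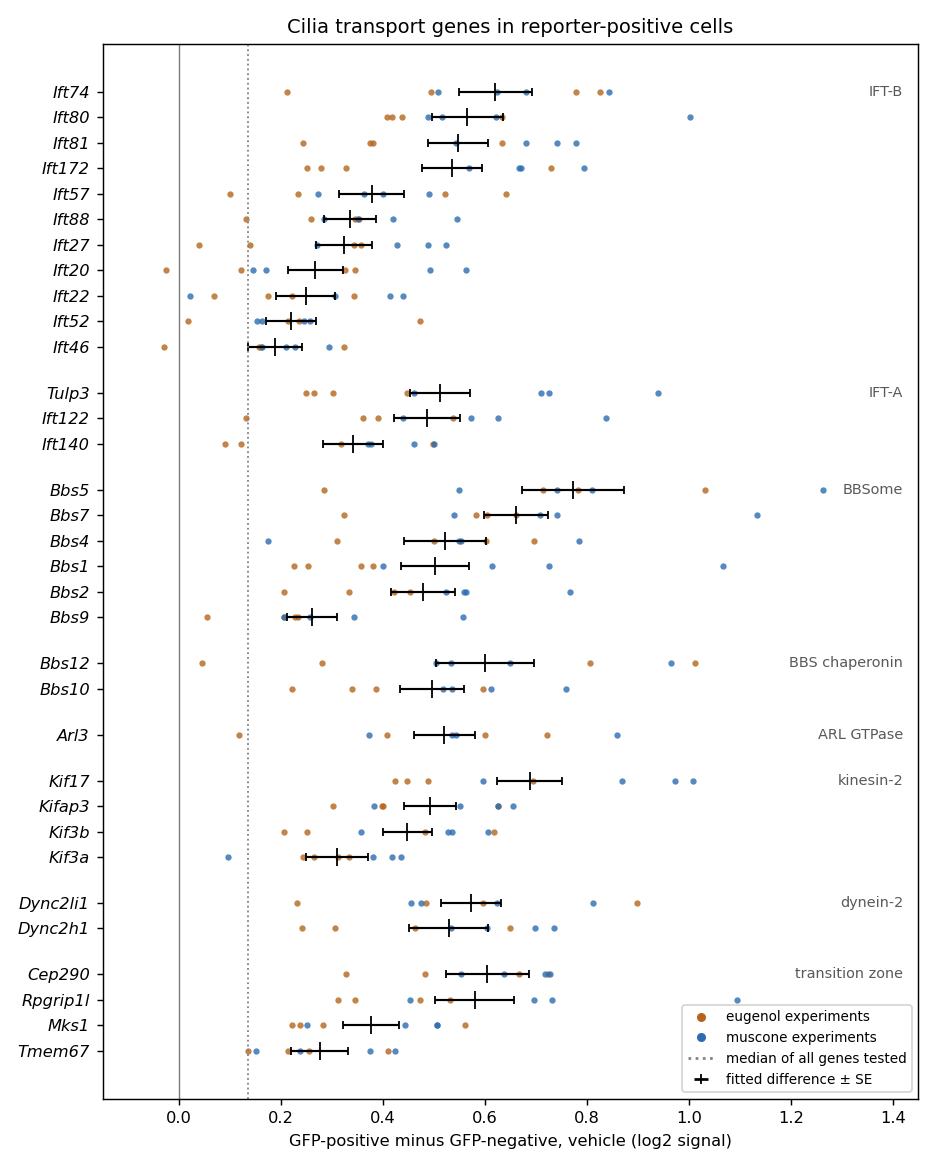
Difference in log2 signal between GFP-positive and GFP-negative cells under vehicle for the 33 members, ordered by role. Coloured points are the 8 experiments, black ticks with bars are the fitted difference ± SE, and the dotted line is the median of all genes (0.14). All fitted differences lie above 0, from 0.19 for Ift46 to 0.77 for Bbs5, on the deposited scale; centring on mature neuron markers places 31 of the 33 below 0.

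IFT-B drives outward transport, and its 11 measured members were all called higher, with a median of 0.34 and a range of 0.19 to 0.62. Ift74, which with Ift81 forms a module that binds tubulin, showed the largest difference of the complex. Over the vehicle arrays the log2 signal of Ift74 was 10.05 at its lowest, 10.52 at the median and 11.10 at its highest in GFP-positive cells, against 9.22, 10.00 and 10.56 in GFP-negative cells. The ranges of the fractions overlapped across experiments, whereas within each experiment the GFP-positive array was higher. The differences were 0.49, 0.21, 0.82 and 0.78 in eugenol experiments 1 to 4, and 0.51, 0.84, 0.68 and 0.62 in muscone experiments 1 to 4. The fitted difference was 0.62 (SE 0.071, 1.54-fold, adjusted p = 1.44e-07). Ift81, its partner, was 0.55 higher, Ift80 0.57 and Ift172, a large peripheral subunit, 0.54. These 4 genes lay above the other 7 members of the complex, which ran from 0.19 to 0.38. Among the latter were Ift88, whose mutation is the classic model of lost cilia (0.34), Ift57 (0.38), and the small GTPases Ift27 (0.32) and Ift22 (0.25). Ift20, a subunit also found at the Golgi, was 0.27 higher, Ift52, a core subunit, 0.22 and Ift46 0.19. The log2 signal of Ift46 under vehicle was 10.80 at its lowest, 11.53 at the median and 12.17 at its highest in GFP-positive cells, against 10.59, 11.34 and 12.01 in GFP-negative cells. The fractions of Ift46 overlapped over almost their whole range, and 7 of 8 experiments were above 0 (adjusted p = 0.00426).

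IFT-A serves return transport and the entry of membrane proteins, and all 3 of its listed genes were called higher. Tulp3, an adaptor that brings membrane receptors to IFT-A, showed the largest difference. In the 8 vehicle experiments the log2 signal of Tulp3 was 8.58 at its lowest, 11.08 at the median and 11.59 at its highest in GFP-positive cells, against 7.86, 10.51 and 11.32 in GFP-negative cells. The lowest value in each fraction came from muscone experiment 3. The 4 eugenol experiments gave differences of 0.30, 0.26, 0.25 and 0.45, and the 4 muscone experiments 0.46, 0.94, 0.72 and 0.71. The fitted difference was 0.51 (SE 0.058, 1.43-fold, adjusted p = 1.31e-07). Ift122 was 0.49 higher and Ift140 0.34, both core subunits of the complex.

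The BBSome genes held the largest difference of all members. Bbs5, a subunit that binds membrane lipids, was 0.77 higher (SE 0.10, 1.71-fold, adjusted p = 8.13e-07). Over the vehicle arrays the log2 signal of Bbs5 was 10.03 at its lowest, 10.58 at the median and 10.84 at its highest in GFP-positive cells, against 9.22, 9.78 and 10.55 in GFP-negative cells. Experiments differed, at 0.78, 0.28, 0.71 and 1.03 for eugenol and 0.55, 1.26, 0.81 and 0.74 for muscone. The smallest of these, in eugenol experiment 2, came from the pair with the brightest GFP-negative array for this gene. Bbs7 followed at 0.66 (SE 0.063), then Bbs4 at 0.52, Bbs1 at 0.50 and Bbs2 at 0.48. Bbs9, a scaffold subunit, had the smallest difference of the 6 at 0.26 (SE 0.049). Bbs10 and Bbs12 encode chaperonin-like proteins needed to assemble the BBSome, and they were 0.50 and 0.60 higher. The log2 signal of Bbs12 under vehicle was 7.42 at its lowest, 7.78 at the median and 8.46 at its highest in GFP-positive cells, against 6.61, 7.19 and 8.23 in GFP-negative cells. Bbs12 varied most in the eugenol set, with 0.28, 0.046, 0.81 and 1.01, against 0.53, 0.50, 0.97 and 0.65 in the muscone set. It was called nonetheless (SE 0.10, adjusted p = 1.35e-05). Arl3, a small GTPase that releases lipidated cargo inside the cilium, was 0.52 higher (SE 0.060, 1.43-fold, adjusted p = 1.58e-07). In the 8 vehicle experiments the log2 signal of Arl3 was 11.98 at its lowest, 12.47 at the median and 12.86 at its highest in GFP-positive cells, against 11.23, 12.00 and 12.74 in GFP-negative cells. Its 8 experiments ran from 0.12 in eugenol experiment 2 to 0.86 in muscone experiment 2.

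All 4 kinesin-2 genes and both dynein-2 genes were called higher. Kif17, a homodimeric kinesin-2 linked to channel transport in olfactory cilia, had the smallest adjusted p of any member. Over the vehicle arrays the log2 signal of Kif17 was 7.68 at its lowest, 9.26 at the median and 9.95 at its highest in GFP-positive cells, against 6.67, 8.58 and 9.50 in GFP-negative cells. Differences were 0.49, 0.45, 0.42 and 0.69 in the eugenol experiments and 0.60, 0.97, 1.01 and 0.87 in the muscone experiments. The fitted value was 0.69 (SE 0.063, 1.61-fold, adjusted p = 5.65e-09). The heterotrimeric kinesin-2 consists of the motor subunits Kif3a and Kif3b and the adaptor Kifap3, which were 0.31, 0.45 and 0.49 higher. Dync2li1, the light intermediate chain of dynein-2, was 0.57 higher (SE 0.059, 1.49-fold, adjusted p = 2.97e-08), and Dync2h1, its heavy chain, 0.53. The log2 signal of Dync2li1 under vehicle was 9.22 at its lowest, 9.79 at the median and 10.16 at its highest in GFP-positive cells, against 8.73, 9.12 and 9.93 in GFP-negative cells. The fractions overlapped in level, while all 8 within-experiment differences lay between 0.23 and 0.90.

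The transition zone genes were led by Cep290, which encodes a linker between microtubules and membrane at the ciliary base. In the 8 vehicle experiments the log2 signal of Cep290 was 9.39 at its lowest, 10.47 at the median and 10.94 at its highest in GFP-positive cells, against 8.83, 9.81 and 10.61 in GFP-negative cells. Its differences were 0.48, 0.33, 0.67 and 0.72 in the eugenol experiments and 0.73, 0.64, 0.55 and 0.72 in the muscone experiments, all above 0. The fitted difference was 0.60 (SE 0.082, 1.52-fold, adjusted p = 1.45e-06). Rpgrip1l, a scaffold of the same zone, was 0.58 higher, Mks1 0.38 and the membrane protein Tmem67 0.28. Medians by role lay close together, from 0.34 for IFT-B to 0.55 for the chaperonin and dynein-2 genes.

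RFX transcription factors regulate many cilia genes through the X-box, an imperfect inverted repeat, so the promoters of the members were searched for it. RefSeq promoters of build GRCm38.p6, 250 bases before to 50 after each gene start, were listed for 30 of the 35 symbols. The motif was GTTNCC and GGNAAC with 1 or 2 bases between them, on either strand. It occurred in 3 of the 30 members (10%) and in 0.718% of 32851 promoters. Here and below, a member counted once if any of its listed promoters matched, while the background counted single promoters. The shares of members and of promoters are therefore not on the same unit. With 0 or 3 bases between the arms it occurred in 0 members, against 0.0274% and 0.0609% of promoters. The left arm GTTGCC alone, which overlaps the full motif, occurred in 13 of the 30 (43.3%) against 12.5% of promoters. The arms TCCC and GGGA with 2 bases between them, as bound by EBF factors of olfactory neurons, occurred in 0 of the 30 and 0.904% of promoters. The motifs were chosen after values were seen, and a match describes letters, not binding. The 150 bases before the start of the 3 genes with a full X-box are shown because they hold the letters that these members share, which are in capitals, 5′ to 3′ on the strand of the gene.
Bbs7: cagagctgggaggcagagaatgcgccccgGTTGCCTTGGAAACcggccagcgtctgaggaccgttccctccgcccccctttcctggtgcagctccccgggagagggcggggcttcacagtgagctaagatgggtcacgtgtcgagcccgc
Ift57: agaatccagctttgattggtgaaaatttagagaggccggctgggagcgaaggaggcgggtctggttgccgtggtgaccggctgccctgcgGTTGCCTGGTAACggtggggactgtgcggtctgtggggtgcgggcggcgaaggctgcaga
Mks1: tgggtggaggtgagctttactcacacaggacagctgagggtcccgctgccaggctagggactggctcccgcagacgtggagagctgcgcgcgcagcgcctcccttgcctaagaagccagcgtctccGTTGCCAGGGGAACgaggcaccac

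These stretches lie at chr3:36613390-36613539 (− strand), chr16:49699144-49699293 (+ strand) and chr11:87853065-87853214 (+ strand). Counted from the gene start, the match begins at −121 in Bbs7, −60 in Ift57 and −24 in Mks1, and the arms are 2, 1 and 2 bases apart. The 3 genes differed across the gate by 0.66, 0.38 and 0.38. Of the measured members with a promoter entry, the 12 with GTTGCC had a median difference of 0.44 and the 16 without it 0.49.

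Other cilia genes outside the list showed the same direction. Of 51 listed, 47 were measured, and 39 were called higher and 3 lower, with a median of 0.41. The share of all genes called higher was 45.1%. This direction also turned around with centring on mature neuron markers or on odorant receptors (1 higher and 34 lower with either). There 90.6% of all genes were called lower with either centring. All 7 other IFT-B genes and all 4 other BBSome genes and partners were higher, as were 14 of 17 other transition zone genes. Ttc8, the BBSome subunit also called BBS8, was 0.75 higher (SE 0.065, adjusted p = 2.47e-09), and Tctn3, a transition zone protein, 0.70 (SE 0.062, adjusted p = 3.36e-09). Against this direction, the IFT-A subunit Ttc21b was −0.61 (adjusted p = 8.64e-06), and Unc119, a carrier of lipidated proteins, −0.40 (adjusted p = 0.000417). The third was Rab8a, a GTPase of vesicle delivery to the cilium, at −0.22 (adjusted p = 0.00298). Among 7 ciliogenesis factors 4 were called higher and 1 lower, against 45.1% of all genes called higher. With so few genes, this count stands near that share. Rfx4 was 1.07 higher (SE 0.065, adjusted p = 9.06e-12), Foxj1, the master factor of motile cilia, 0.49 (adjusted p = 7.48e-06), and Gmnc, a multiciliogenesis factor, −0.69 (adjusted p = 8.26e-05).

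Markers of mature neurons and of respiratory ciliated cells moved with the members across the gate, and those of most other cell types did not. All 15 mature neuron markers were higher (median 0.58), and 13 of 14 markers of respiratory ciliated cells were higher and 0 lower (median 0.68). Foxj1 is in the respiratory list and also among the ciliogenesis factors above, so these lists are not separate. Of all genes, 45.1% were called higher. The mean signal of the respiratory list was 7.62 to 10.1 over the GFP-negative and 8.43 to 10.4 over the GFP-positive vehicle arrays. That of the mature neuron list was 10.9 to 13.4 and 12.0 to 13.6. Lower in GFP-positive cells were 6 of 11 immature neuron markers (median −0.64), 7 of 7 of basal progenitors (−2.42), 6 of 6 of microvillous cells (−1.37) and 10 of 10 of immune cells (−3.63). So were 4 of 4 horizontal basal, 2 of 5 Bowman's gland and 2 of 2 erythroid markers (−0.87, −0.44 and −3.34). The immature neuron markers without a call, Tubb3, Dcx, Ncam1, Lhx2 and Ebf1, ran from −0.053 (Ebf1) to 0.024 (Ncam1). Over all genes the 5th and 25th percentiles of the difference were −1.30 and −0.11. The share of all genes called lower is not given here. Sustentacular markers gave 0 calls among 8 and spread from −1.13 to 1.35 in list median between experiments. What part these cells had in the members' difference was not tested.

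**Figure D2:**
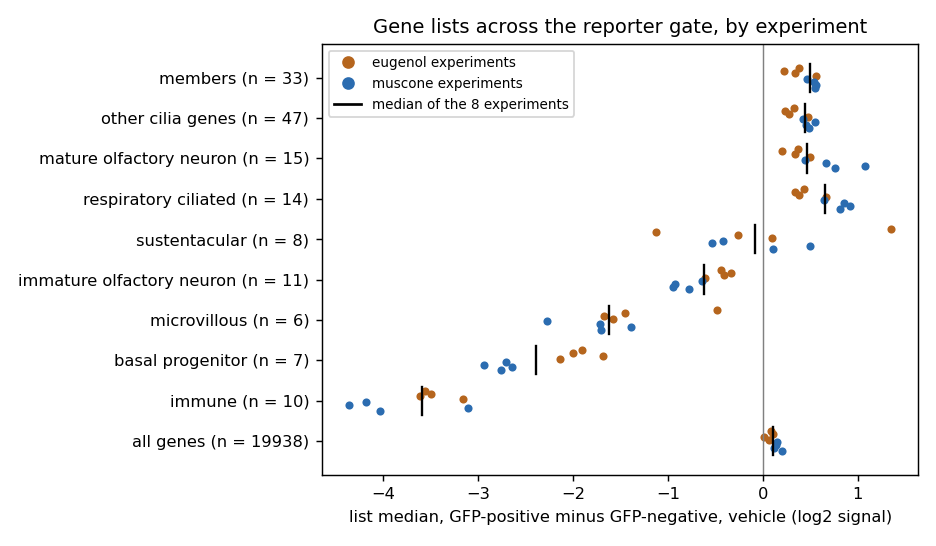
Median difference in log2 signal between GFP-positive and GFP-negative cells under vehicle for each gene list, 1 point per experiment, with the median of the 8 experiments as a bar. The members sit between 0.23 and 0.56, beside other cilia genes and mature neuron markers, while progenitor and immune markers lie at −1.69 or lower in every experiment. The direction of the members turns with centring on mature neuron markers.

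The reference taken for the signal set the direction. The median signal of the mature neuron markers was itself 0.67 higher in GFP-positive cells and that of the odorant receptors 0.64 higher. These are shifts of a list's median signal per array. As a median of gene differences, the mature neuron markers were 0.58 higher, against 0.50 for the members. With arrays centred on the mature neuron markers the median member was −0.17, and 0 members were called higher and 19 lower, where 90.6% of all genes were called lower. Bbs5 (0.10) and Kif17 (0.017) alone stayed above 0, and neither was called. Centring on the mean of the markers in place of their median, an alternative added after the data were seen, gave a median of −0.027 with 3 members higher and 10 lower. That centring lowered the difference of every gene by 0.52, and the share of all genes called with it is not given here. Centring on all probe sets kept all 33 higher, with a median of 0.57.

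The members also moved together over arrays. After removal of each experiment's mean, the pairwise Pearson correlation of members over the 32 arrays had a median of 0.905 (0.636 to 0.985 over 528 pairs). The arrays share their fraction and overall signal, and the median gene of the whole table correlated at 0.521 with the member mean. A member correlated with the mean of the other members at a median of 0.954. Ift20 followed the other members least (0.804). The non-member genes most like the member mean were Ptchd1 (0.992), Enkur, a sperm and motile cilia protein (0.992), Spata6 (0.991), Ptprr (0.990) and Olfr358, an odorant receptor (0.990).

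After odorant the difference between fractions was called again for most members. After eugenol 31 of 33 were called higher (median 0.44), against 28.3% of all genes, and after muscone 33 of 33 (median 0.66), against 35.1%. With centring on mature neuron markers 0 members were called higher and 7 and 20 lower, where 79% and 90.7% of all genes were called lower. With centring on odorant receptors 0 were higher and 10 and 20 lower, where 83.1% and 91.6% of all genes were called lower. Both centrings lowered most genes, and a smaller share of the members than of all genes was called lower. The members without a call after eugenol were Ift20 (0.11, adjusted p = 0.238) and Ift46 (0.16, adjusted p = 0.0839). Over vehicle and odorant pairs together, 525 of 528 member differences were above 0, and 31 members were above 0 in all 16 pairs. Over all genes 61.8% of the vehicle differences were above 0. The shares of all genes over odorant pairs and over all 16 pairs are not given here.

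**Figure D3:**
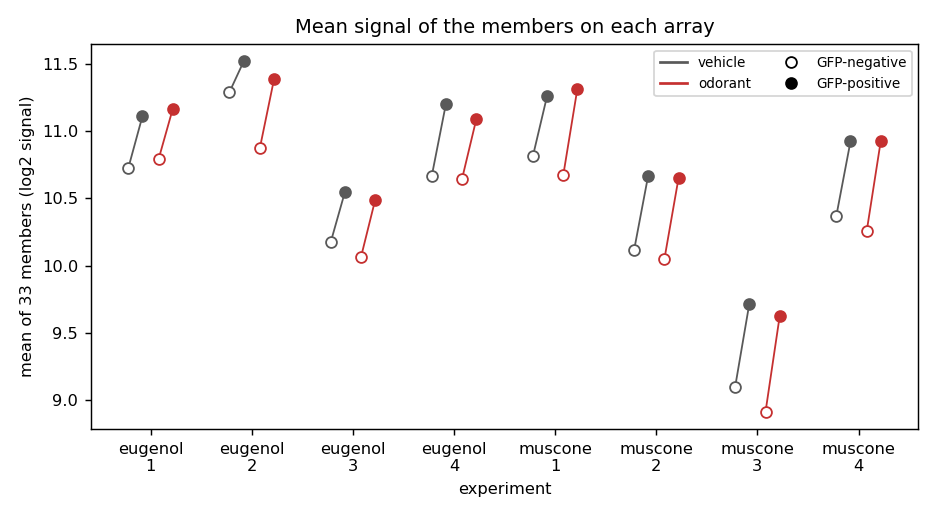
Mean log2 signal of the 33 members on each of the 32 arrays. Open and filled circles are GFP-negative and GFP-positive cells, grey is vehicle and red is odorant, and a line joins the fractions of 1 stimulus in 1 experiment. The filled circle is the higher one in all 16 pairs as deposited, and experiments differ more in level than fractions do; the direction of the members turns with centring on mature neuron markers.

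The comparison of odorant with vehicle inside a fraction asked whether stimulation changed these genes. No member was called in any of the 4 comparisons. Over all genes 0 were called (0%) after eugenol in GFP-positive cells, 0 (0%) after eugenol in GFP-negative cells, 1 (0.00502%) after muscone in GFP-positive cells and 0 (0%) after muscone in GFP-negative cells. In GFP-positive cells the median member effect was −0.057 after eugenol and −0.012 after muscone, with 0 members at a raw p under 0.05 in limma in either case. In GFP-negative cells all 33 values were below 0 after each odorant, with medians of −0.11 and −0.12 and with 5 and 6 members at a raw p under 0.05. The share of all genes at a raw p under 0.05 is not given here, so these counts have no background beside them. The members moved together over arrays (median pairwise correlation 0.905), so these counts are not counts of separate results. The median of all genes in GFP-negative cells was −0.038 and 0.0079. After eugenol the negative values came mainly from experiment 2, where all 33 members were below 0 with a median of −0.41 and 74.8% of all genes were below 0. Without that experiment the median was −0.019 and 11 members were above 0. After muscone the member medians of experiments 1 to 4 were −0.15, −0.051, −0.17 and −0.11, with 28, 22, 31 and 27 members below 0. Of all genes, 54.3%, 51.1%, 47.7% and 43.1% were below 0 in these experiments. With centring on odorant receptors 6 members were called higher after muscone in GFP-negative cells, where 50.2% of all genes were called higher. In the same comparisons 0 genes of the marker lists were called. Their medians after eugenol and muscone were −0.14 and −0.14 for mature neuron markers, −0.17 and −0.16 for respiratory ciliated markers, and 0.22 and 0.20 for basal progenitor markers. Their part in the members' values was not tested.

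The smallest p after eugenol in GFP-positive cells belonged to Cep290. Its signal in experiments 1 to 4 was 10.51, 10.94, 10.17 and 10.65 with vehicle and 10.67, 10.67, 9.56 and 10.46 with eugenol. The groups overlapped, and experiment 1 differed in sign from the others. The fitted effect was −0.22 (SE 0.12, adjusted p = 0.999). In GFP-negative cells Rpgrip1l came first, at 10.84, 11.62, 10.35 and 10.87 with vehicle and 10.84, 10.82, 10.14 and 10.71 with eugenol. The change was −0.80 in experiment 2 and between −0.21 and 0 in the others, and the effect was −0.29 (SE 0.11, adjusted p = 1). Mks1 had the smallest p after muscone in both fractions. In GFP-negative cells it was 9.61, 8.77, 7.76 and 9.41 with vehicle and 9.36, 8.71, 7.45 and 9.20 with muscone. It was lower with muscone in 4 of 4 experiments, while the groups overlapped across experiments. The effect was −0.21 (SE 0.077, adjusted p = 0.451) and turned to 0.072 with centring on odorant receptors. In GFP-positive cells Mks1 was 10.12, 9.02, 8.27 and 9.85 with vehicle and 9.88, 8.96, 8.08 and 9.82 with muscone (−0.13, SE 0.077, adjusted p = 1).

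The change of the difference between fractions with odorant was not called for any member. All genes gave 0 calls (0%) for eugenol and 1 (0.00502%) for muscone. The median change was 0.050 with eugenol (29 members above 0) and 0.12 with muscone (31 above 0), and 0 members had a raw p under 0.05 in limma with either. The shares of all genes above 0 or at that raw p are not given here. The members moved together over arrays, so these signs are not separate results. The median change with eugenol and muscone was 0.081 and 0.10 for mature neuron markers. It was 0.13 and 0.18 for respiratory ciliated markers and −0.53 and −0.060 for basal progenitor markers, with 0 calls. Their part in the members' change was not tested. The smallest p among the members belonged to Bbs1 for eugenol (0.19, SE 0.13, adjusted p = 1) and to Dync2li1 for muscone (0.20, SE 0.12, adjusted p = 0.985). The latter was −0.075 with centring on odorant receptors. These changes share their vehicle arrays with the comparisons inside each fraction.

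**Figure D4:**
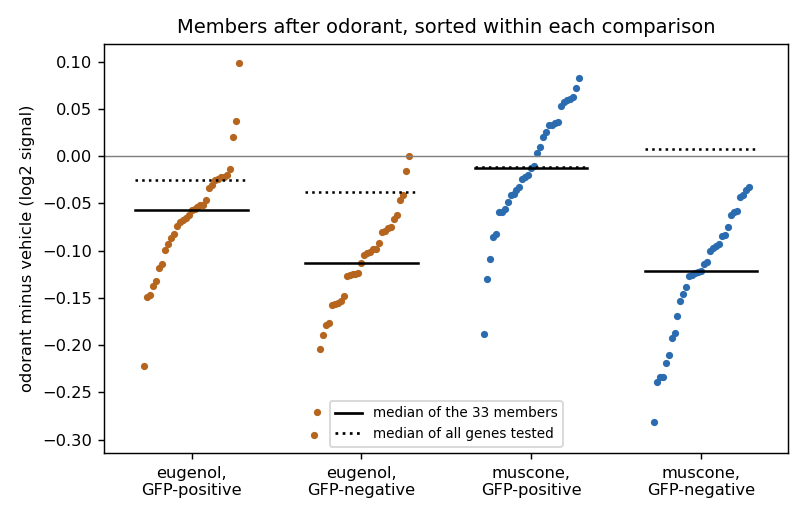
Odorant minus vehicle in log2 signal for the 33 members in each fraction, sorted within each comparison. Solid bars are member medians (−0.057, −0.11, −0.012 and −0.12 from left to right) and dotted bars are medians of all genes. No point passed the test.

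The vehicle arrays of the eugenol and the muscone experiments gave the same comparison in separate sets. In the eugenol experiments 30 of 33 members were called higher (median 0.39), against 21.1% of all genes, and in the muscone experiments 33 of 33 (median 0.59), against 41.5%. With centring on mature neuron markers 0 members were called higher and 8 and 18 lower, where 73.2% and 89.3% of all genes were called lower. With centring on odorant receptors the counts were 22 lower, and 1 higher and 12 lower, against 88.6% and 81.2% of all genes called lower. Without eugenol experiment 4 the count in the eugenol set was 18. Ift20, Ift22 and Ift46 were the members without a call in the eugenol set, at 0.19, 0.20 and 0.15 (adjusted p = 0.0524, 0.0587 and 0.12). The difference between sets was tested directly and was called for 0 members and 0 genes (0%), with 6 members at a raw p under 0.05 in limma. The difference was larger in the muscone set for 31 members, with a median gap of −0.14 for eugenol minus muscone. The shares of all genes at that raw p, or with a larger difference in the muscone set, are not given here. Whether these counts are particular to the members was not tested. The members moved together over arrays, so these signs are not separate results. The gap had a median of −0.27 for mature neuron markers, −0.31 for respiratory ciliated markers and 0.66 for basal progenitor markers, with 0 calls in each list. Their part in the members' gap was not tested. Tulp3 had the smallest p, at 0.32 in the eugenol and 0.71 in the muscone set (gap −0.39, SE 0.12, adjusted p = 0.183). Bbs1 was 0.30 and 0.70, and Kif17 0.51 and 0.86. Ift52 and Bbs4 were the exceptions, at 0.23 and 0.20, and 0.53 and 0.51. Over the 33 members the differences in the sets correlated at 0.778.

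**Figure D5:**
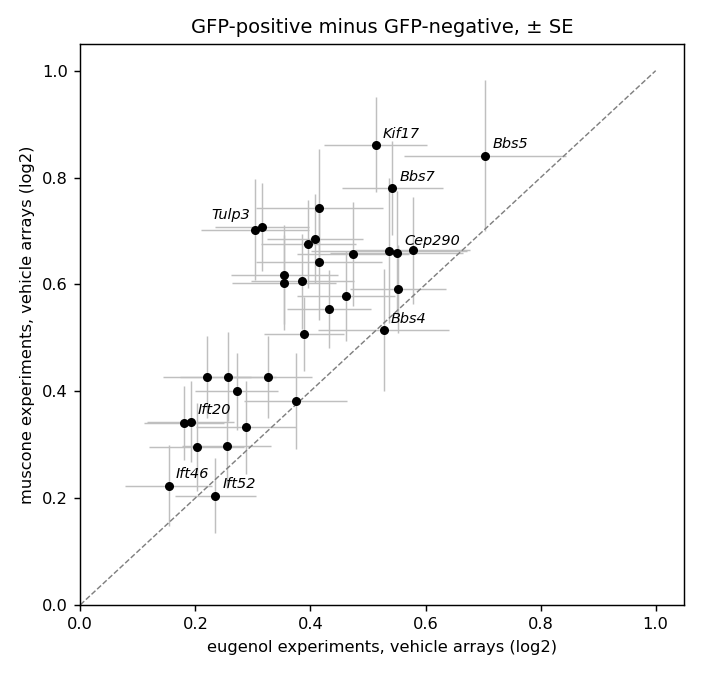
Fitted difference in log2 signal between GFP-positive and GFP-negative vehicle cells in the muscone experiments (vertical axis) against the eugenol experiments (horizontal axis) for the 33 members, with SE bars and a dashed line of equality. Points lie above the line for 31 members and below it for Ift52 and Bbs4, and the gap passed the test for 0. All values are above 0 as deposited, while centring on mature neuron markers gave 8 and 18 members called lower and 0 higher, against 73.2% and 89.3% of all genes called lower.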

How the data were processed

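Values are the log2 intensities of 35556 probe sets on 32 arrays that the authors deposited, made in Affymetrix Expression Console per the submitters' processing notes. For its version, background correction, normalization and probe summary, details were not given in the sources used here. Platform annotation gave 1 symbol for 21789 probe sets, several for 1621 and none here for 12146. Probe sets with 1 symbol were used, and the brightest stood for its gene. The number of arrays, 4 per group, limits precision.

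limma 3.58.1 in R 4.3.3 fitted 8 group means with the experiment as a block (14 coefficients, 18 residual degrees of freedom, 21.7 with the prior). Tests were two-sided. Deviations of arrays from their group means were correlated: the 48 pairs of arrays from 1 experiment gave 0.20 to 0.91 (median 0.66), all above 0.1, so the shared title code was taken as pairing.

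Named genes were the member with the largest change per role, the member with the smallest p per odorant comparison, up to 3 other cilia genes per direction, Omp, S100a5 and Foxj1, and the 5 genes most correlated with the member mean. Rab8a, Ift20, Ift22, Ift46, Ift52, Bbs4 and the genes with an X-box were singled out after their values were seen. The members and lists were chosen with earlier results of these data known. Alternatives were other centrings, quantile normalization, a filter on dim genes, the mean of a gene's probe sets, array weights, no block and each experiment left out.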

Additional observations from a re-analysis of the deposited data

Results flagged for a closer look

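In 15 of 264 combinations of a member and a group of 4 arrays, 1 array lay far from the others by Dixon's test. Chance alone gives a share of about 0.05 of groups where the groups are independent. The members moved together over the same arrays, so this count cannot be weighed against that share. Values are log2 signals. Of these, 7 were low values in eugenol experiment 3: Ift74 in GFP-positive cells with eugenol (9.62, others 10.59 to 10.74), Ift88 in GFP-negative cells with eugenol (11.03, others 11.60 to 11.64), Ift140 in GFP-positive cells with eugenol (10.70, others 11.32 to 11.44), Bbs4 in GFP-negative cells with eugenol (10.52, others 11.25 to 11.35), Kif3a in GFP-negative cells with eugenol (10.07, others 10.84 to 10.89), Dync2li1 in GFP-negative cells with eugenol (8.57, others 9.40 to 9.54), and Rpgrip1l in GFP-positive cells with eugenol (10.56, others 11.40 to 11.47). A further 7 were low values in muscone experiment 3: Ift80 in GFP-negative cells with vehicle (8.73, others 11.07 to 11.50), Ift80 in GFP-positive cells with vehicle (9.73, others 11.69 to 11.99), Bbs4 in GFP-negative cells with vehicle (9.41, others 11.08 to 11.41), Kifap3 in GFP-negative cells with muscone (9.34, others 10.90 to 11.18), Kifap3 in GFP-positive cells with muscone (10.08, others 11.50 to 11.79), Kifap3 in GFP-positive cells with vehicle (10.10, others 11.53 to 11.65), and Dync2h1 in GFP-negative cells with muscone (8.60, others 10.22 to 10.54). The last was a high value in muscone experiment 2: Ift74 in GFP-positive cells with vehicle (11.10, others 10.32 to 10.45). Muscone experiment 3 had the lowest array medians of all experiments (6.72 to 6.86), and eugenol experiment 3 the lowest of the eugenol set (7.52 to 7.63).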

How the results depend on the processing

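The difference of 33 members under vehicle was kept with centring on all probe sets, quantile normalization, the mean of a gene's probe sets, array weights and each experiment left out, and the 32 members left by the filter on dim genes all kept theirs. Without the replicate block 0 members were called under vehicle, after eugenol, after muscone and in each vehicle set, and 1 other cilia gene. Under vehicle 7 members then had a raw p under 0.05 and adjusted p ran from 0.055 to 0.916. For all genes the shares without the block are not given. That fit ignores the pairing and counts differences between experiments as spread. The count in the eugenol experiments under vehicle was 18 to 31 with 1 experiment left out. The dim range of the arrays limits Bbs12, which the filter removed.

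With centring on mature neuron markers, members called lower were 19 under vehicle, 7 after eugenol, 20 after muscone, 8 in the eugenol and 18 in the muscone vehicle set, and 35 other cilia genes were called (1 higher, 34 lower). With centring on odorant receptors the counts were 18, 10, 20, 22 and 13 (1 higher, 12 lower), and 35 other cilia genes (1 higher, 34 lower), and 6 members were called higher after muscone in GFP-negative cells. Under vehicle the mean of the mature markers gave 13 calls (3 higher, 10 lower), and their median without muscone experiment 3 gave 17 lower, both chosen after seeing the data. The share of all genes called is not given for either. With all experiments, 90.6% of all genes were called lower under vehicle with centring on the median of the mature markers or on odorant receptors. Such a centring moves every gene by 1 amount, so these turns are not separate results.

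Genes that turned below 0 under vehicle with centring on mature neuron markers were Ift20 −0.40, Ift22 −0.42, Ift27 −0.35, Ift46 −0.48, Ift52 −0.45, Ift57 −0.29, Ift74 −0.050, Ift80 −0.10, Ift81 −0.12, Ift88 −0.33, Ift172 −0.13, Ift122 −0.18, Ift140 −0.33, Tulp3 −0.16, Bbs1 −0.17, Bbs2 −0.19, Bbs4 −0.15, Bbs7 −0.0090, Bbs9 −0.41, Bbs10 −0.17, Bbs12 −0.071, Arl3 −0.15, Kif3a −0.36, Kif3b −0.22, Kifap3 −0.18, Dync2h1 −0.14, Dync2li1 −0.10, Cep290 −0.066, Rpgrip1l −0.091, Tmem67 −0.39, Mks1 −0.29, Omp −0.40, S100a5 −0.24, Foxj1 −0.18. With centring on odorant receptors they were Ift20 −0.38, Ift22 −0.40, Ift27 −0.32, Ift46 −0.46, Ift52 −0.42, Ift57 −0.27, Ift74 −0.023, Ift80 −0.078, Ift81 −0.10, Ift88 −0.31, Ift172 −0.11, Ift122 −0.16, Ift140 −0.30, Tulp3 −0.13, Bbs1 −0.14, Bbs2 −0.17, Bbs4 −0.12, Bbs9 −0.38, Bbs10 −0.15, Bbs12 −0.044, Arl3 −0.12, Kif3a −0.33, Kif3b −0.20, Kifap3 −0.15, Dync2h1 −0.12, Dync2li1 −0.072, Cep290 −0.039, Rpgrip1l −0.064, Tmem67 −0.37, Mks1 −0.27, Omp −0.37, S100a5 −0.22, Foxj1 −0.15. There, too, Mks1 after muscone in GFP-negative cells was 0.072 and the muscone change of Dync2li1 −0.075. S100a5 lost its call without eugenol experiment 1 or muscone experiment 4. Of 780 alternatives for 49 gene results, 658 kept direction and call, 53 lost the call and 69 reversed.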
